A study of Homo sapiens with 6 samples.

Results

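The genes described here are 36 members of the ATF4 branch of the integrated stress response, taken by gene symbol from a deposited table of 58735 genes, without the tRNA synthetases and ATF3. All 36 symbols matched 1 gene each, and 35 passed the filter on low counts, FGF21 being the exception. By known function they were sorted into 18 genes of amino acid supply (11 of synthesis and 7 of transport), 7 pro-death and feedback genes, 6 transcription regulators and 5 secreted or other genes.

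RNA sequencing counts came from 6 libraries of A549, a human lung adenocarcinoma cell line labelled as alveolar epithelial. In 3 of them (group PQ) cells had received paraquat, a redox-cycling herbicide, and in the other 3 (group PQ+SS-31) paraquat together with SS-31, a peptide that concentrates at the inner mitochondrial membrane. All 6 carry a 48 h label. Doses are not given in the sources used here, and no untreated library was analysed, so each comparison is of PQ+SS-31 with PQ and not of paraquat with its absence. The labels do not say whether the replicates were separate cultures, so the tests measure the spread between these libraries, which may be technical.

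In the integrated stress response, kinases that sense amino acid shortage, ER stress, haem shortage or double-stranded RNA phosphorylate the translation factor eIF2, which slows protein synthesis as a whole while translation of the ATF4 mRNA increases. The ATF4 protein then induces genes for making and importing amino acids. It also induces genes that dampen the response or, when stress lasts, favour cell death, among them the transcription factor CHOP (gene DDIT3), the pseudokinase TRIB3 and the phosphatase subunit GADD34 (gene PPP1R15A). Because ATF4 is controlled largely at translation, its mRNA is not a measure of its protein.

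ATF4 and its partners of the C/EBP family bind a composite DNA element, searched here as TGATGNAA and its reverse complement TTNCATCA in the 250 bases before each annotated transcription start (RefSeq, GRCh38.p14). A gene can have several windows, and 29 of the 36 members had 47 in all. A match was present in 6 of these 47 windows (12.8%), 1 window in each of 6 members, and in 3.14% of all 35116 windows. The 6 stretches are shown because the element is the family's hallmark, with the match in capitals and each read 5′ to 3′ on the strand of its gene.
ASNS (chr7:97872458-97872487, minus strand): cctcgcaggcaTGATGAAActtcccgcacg
CHAC1 (chr15:40953251-40953280, plus strand): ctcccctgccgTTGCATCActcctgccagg
CEBPG (chr19:33374060-33374089, plus strand): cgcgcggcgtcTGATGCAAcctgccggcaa
JDP2 (chr14:75427995-75428021, plus strand): atagccggggcTGATGCAAcccgtccc
SLC1A5 (chr19:46784893-46784922, minus strand): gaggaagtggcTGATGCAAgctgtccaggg
FGF21 (chr19:48755459-48755488, plus strand): aaacaccaggaTTGCATCAgggaggaggag

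The matches start 68 bases before the transcription start in ASNS, 209 in CHAC1, 42 in CEBPG, 16 in JDP2, 97 in SLC1A5 and 54 in FGF21. Of these 6 genes, 5 were tested as described below and none of the 5 passed; FGF21 had too few counts. The genes that did pass, TRIB3, PPP1R15A and SESN2, held no match in their windows, and neither did DDIT3, which says only that these letters are not there. The 100 bases before their most upstream RefSeq start, which is not always the GENCODE gene start given later, are shown with CRE half-sites (TGACG or its reverse complement CGTCA) and CCAAT boxes (CCAAT or its reverse complement ATTGG) in capitals.
TRIB3 (chr20:381195-381294, plus strand): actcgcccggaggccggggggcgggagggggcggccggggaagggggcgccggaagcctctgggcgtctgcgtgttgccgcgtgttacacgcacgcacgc
PPP1R15A (chr19:48872321-48872420, plus strand): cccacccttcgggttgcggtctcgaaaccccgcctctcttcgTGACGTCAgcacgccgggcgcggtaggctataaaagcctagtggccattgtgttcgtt
SESN2 (chr1:28259418-28259517, plus strand): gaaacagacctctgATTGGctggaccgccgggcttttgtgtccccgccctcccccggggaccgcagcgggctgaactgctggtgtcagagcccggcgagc
DDIT3 (chr12:57520518-57520617, minus strand): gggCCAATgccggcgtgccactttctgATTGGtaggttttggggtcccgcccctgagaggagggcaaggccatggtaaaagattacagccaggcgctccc

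In PPP1R15A the forward and reverse half-sites overlap in 1 palindromic run. A CRE half-site was present in 13 of the 47 member windows (27.7%) and in 21.2% of all windows. A CCAAT box was present in 18 of the 47 (38.3%) and in 32% of all windows. The TRIB3 stretch held neither.

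Library totals ran from 16332061 to 17576827 counts. PQ replicate 3 stood apart, with NEAT1, a nuclear long non-coding RNA, at 884.5 CPM (counts scaled to TMM-adjusted library size) against 151.9 to 437 CPM in the other libraries. Mitochondrial genes held 9.08% to 11.9% of counts with PQ and 8.39% to 12.6% with PQ+SS-31. Of 13 lung epithelial markers, KRT7, KRT8 and KRT18 were abundant. The surfactant genes SFTPB, SFTPC, SFTPA1 and SFTPD had at most 7 counts in a library, and the lung lineage factor NKX2-1 had 0 counts in all 6. EPCAM, at 7 to 14 counts in a library, and NAPSA, at 14 to 49, were also low. The summed level of the 13 was 3858 to 4135 CPM with PQ and 4689 to 5201 CPM with PQ+SS-31. CDH1, which encodes E-cadherin, rose from 13.6 ± 1.398 to 24.4 ± 3.12 CPM (SD, n = 3; edgeR adjusted p = 0.0389, and 0.0184 to 0.229 without 1 library, under 0.05 only without PQ replicate 3). It was the 1 called of the 8 tested markers. KRT8 at 1356 ± 143 and 1939 ± 161 CPM and KRT18 at 407.6 ± 8.67 and 562.3 ± 48.5 CPM were higher without overlap but missed the threshold (edgeR adjusted p = 0.112 and 0.0879). So did KRT7, also higher without overlap, at 2128 ± 21.6 and 2380 ± 83.9 CPM (edgeR adjusted p = 0.5575). Of the 8, 6 had positive log2 fold changes, and 2, KRT19 and ABCA3, had negative ones (-0.23 and -0.14). Of 7 markers of leukocytes, endothelium and fibroblasts, 3 passed the filter, and the 7 summed to 13.8 to 22.6 CPM with PQ and 18.9 to 27.6 CPM with PQ+SS-31. Among them CD14 was higher without overlap, at 4.31 ± 0.73 and 6.30 ± 0.42 CPM, and was not called (edgeR adjusted p = 0.287). The part of these differences in the results below was not tested. In a bulk library, fewer cells with a transcript and less of it in each cell cannot be told apart.

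Levels below are in CPM, and calls are from edgeR's quasi-likelihood test over 15550 genes at a Benjamini-Hochberg adjusted p under 0.05. Of the 35 tested members, 3 were lower with SS-31 and 0 were higher. Over all tested genes, 0.463% were called lower and 0.129% higher. The 3 called members, TRIB3, PPP1R15A and SESN2, all belong to the 7 pro-death and feedback genes. This group is broad, since SESN2, DDIT4 and EIF4EBP1 are tied to the growth kinase complex mTORC1, as described below. The lists were drawn up with earlier results of these data known, so the match of calls and group is not independent of the data. Neither edgeR, DESeq2 nor limma-voom called any of the 18 amino acid supply genes, and edgeR gave 2 of them an unadjusted p under 0.05. Both were higher, and over all tested genes 5.62% were higher and 5.94% lower at that p. The members' median log2 fold change was -0.06, against 0.00 over all tested genes. It was 0.08 for amino acid supply and -0.51 for the pro-death and feedback genes, groups compared here by counts and medians alone. The latter is the value of SESN2, the middle gene of the 7, whose changes ran from -0.92 to 0.16.

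**Figure D1:**
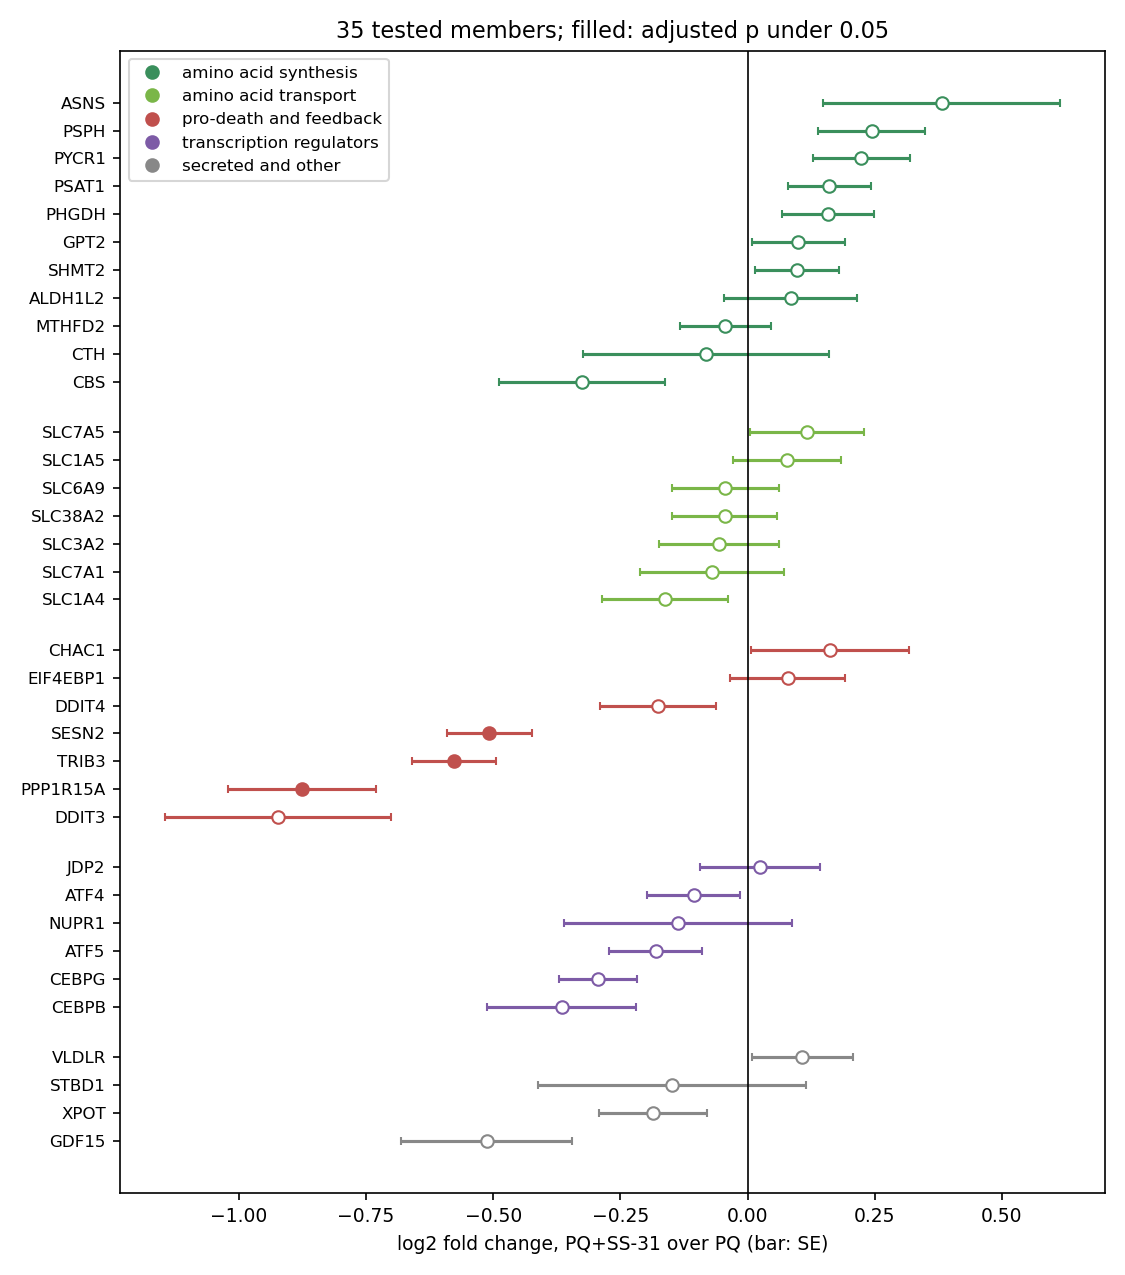
Fitted log2 fold change (x axis, PQ+SS-31 over PQ, with SE bars) of the 35 tested members, grouped by role in color. Filled points passed an adjusted p of 0.05, and the 3 filled points are SESN2, TRIB3 and PPP1R15A among the pro-death and feedback genes, while amino acid synthesis and transport lie between -0.33 and 0.38.

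TRIB3 encodes a pseudokinase that ATF4 and CHOP induce and that in turn restrains ATF4 and AKT signalling (chromosome 20, 362835 to 397559, GRCh38, plus strand). With PQ alone, replicates 1, 2 and 3 stood at 299, 299.1 and 279.1 CPM. With PQ+SS-31, in the same order, they stood at 196.6, 190.5 and 200.9 CPM, and every gene below is given in this order. Every PQ library lay above every PQ+SS-31 library, and the spread within each group was narrow. TRIB3 fell by 33.0%, a log2 fold change of -0.58 ± 0.08 (SE), with an edgeR adjusted p of 0.0282.

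PPP1R15A encodes GADD34, which brings protein phosphatase to eIF2 and so reverses the block on translation (chromosome 19, 48872392 to 48876057, plus strand). PPP1R15A read 283.9, 234.4 and 312.9 CPM in the PQ libraries and 178.2, 128.8 and 145.9 CPM in the PQ+SS-31 libraries. The groups did not overlap, although the spread within each was wider than for TRIB3. The log2 fold change was -0.88 ± 0.15 (SE), a fall of 45.5%, with an edgeR adjusted p of 0.0415. PPP1R15B, the constitutive counterpart in the same job, was at 218.9 ± 4.42 and 196.4 ± 3.99 CPM (SD, n = 3), without overlap, and missed the threshold (edgeR adjusted p = 0.513). On a scale per length (TPM, computed from the deposited gene lengths), the ratio of PPP1R15A to PPP1R15B was 2.21, 1.77 and 2.45 in the PQ libraries and 1.54, 1.13 and 1.23 in the PQ+SS-31 libraries.

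SESN2 encodes sestrin 2, a leucine-binding protein that restrains the growth kinase complex mTORC1 (chromosome 1, 28259527 to 28282491, plus strand). Its levels were 75.3, 75.9 and 70.0 CPM with PQ and 49.6, 51.5 and 54.4 CPM with PQ+SS-31. No library of either group came near the other group. The fall was 29.7%, a log2 fold change of -0.51 ± 0.08 (SE), with an edgeR adjusted p of 0.0414.

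**Figure D2:**
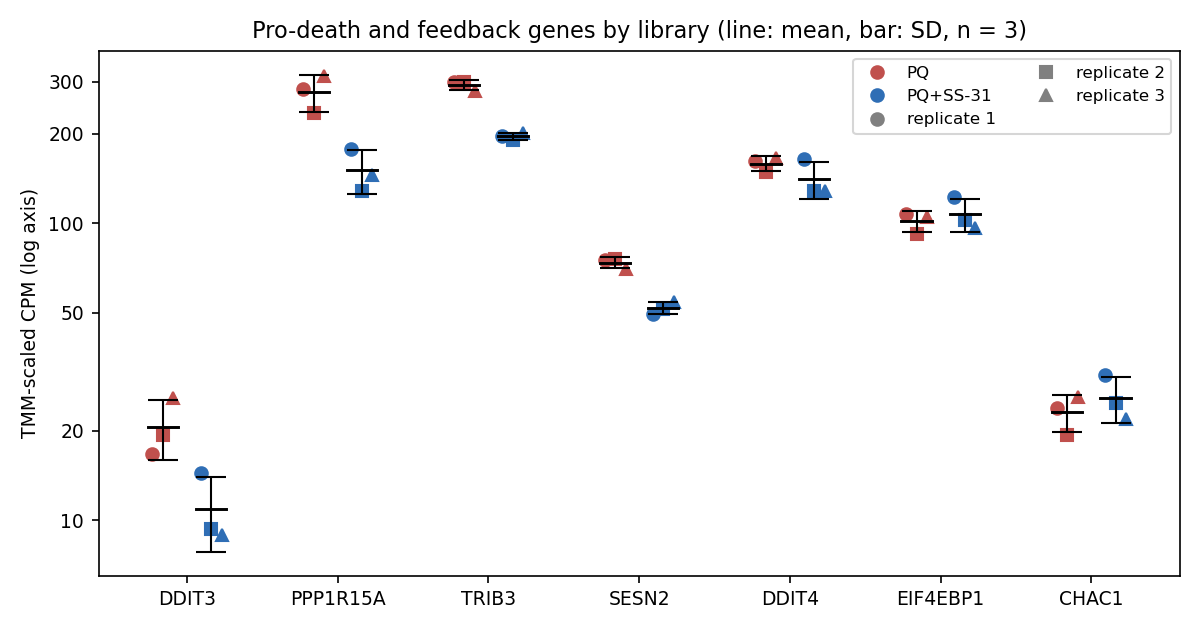
TMM-scaled CPM (y axis, log scale) of the 7 pro-death and feedback genes in each library, PQ in red and PQ+SS-31 in blue, with marker shape for the replicate, lines for means and bars for SD (n = 3). DDIT3, PPP1R15A, TRIB3 and SESN2 are separate between groups, while DDIT4, EIF4EBP1 and CHAC1 overlap.

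Leaving out 1 library decided these 3 calls. Refits without PQ replicate 3 kept all 3, with adjusted p of 0.00692 for TRIB3, 0.0122 for PPP1R15A and 0.0118 for SESN2, in a refit that called 328 genes. Refits without PQ replicate 1, PQ replicate 2 or any of the PQ+SS-31 libraries called 0 members and 0 to 10 genes in all. Over the 6 refits the adjusted p ranged from 0.00692 to 0.246 for TRIB3, 0.0122 to 0.248 for PPP1R15A and 0.0118 to 0.287 for SESN2. The log2 fold changes moved little, from -0.62 to -0.56 for TRIB3, -1.01 to -0.77 for PPP1R15A and -0.55 to -0.48 for SESN2. With library size alone in place of TMM factors, PPP1R15A missed the threshold (adjusted p = 0.09).

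DDIT3 encodes CHOP, the factor most tied to death under lasting ER stress. It measured 16.7, 19.4 and 25.8 CPM with PQ and 14.4, 9.32 and 8.91 CPM with PQ+SS-31. The groups did not overlap, but PQ replicate 1 and PQ+SS-31 replicate 1 were close to each other. The log2 fold change was -0.92 ± 0.22 (SE), the most negative among the members, with an edgeR adjusted p of 0.131. DESeq2 called it (adjusted p = 0.00785), as did edgeR without a filter on low counts (adjusted p = 2.58e-06). That unfiltered fit took in 30286 genes and left the log2 fold change almost the same, at -0.93, so only the p moved. Over the 6 refits without 1 library the edgeR adjusted p of DDIT3 ran from 0.0696 to 0.451. Exons of MARS, MBD6 and the model AC022506.1 overlap 39.6% of the DDIT3 exon bases, so its count may omit or include reads of its neighbours.

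CHAC1, which breaks down glutathione and is induced downstream of ATF4, was not lower. CHAC1 read 23.9, 19.4 and 25.9 CPM with PQ and 30.7, 24.9 and 21.8 CPM with PQ+SS-31. The groups overlapped, and the log2 fold change was 0.16 ± 0.16 (SE). Its 95% interval, from -0.19 to 0.51, lay above the changes fitted for TRIB3 and SESN2, bounds chosen after the values were seen. The 95% intervals of those 2 genes reached up to -0.39 and -0.32. The intervals of 10708 of the 15550 tested genes also lay wholly above the SESN2 value. DDIT4 encodes REDD1, another brake on mTORC1. DDIT4 was at 161.7, 148.9 and 166.2 CPM with PQ and at 164.2, 128.9 and 128.8 CPM with PQ+SS-31, where replicate 1 reached the PQ range (log2 fold change -0.18 ± 0.11, SE). The antisense gene DDIT4-AS1 overlaps 41.2% of the DDIT4 exon bases. EIF4EBP1, the translation repressor that mTORC1 switches off, was at 101.4 ± 8.27 and 107.1 ± 14.0 CPM (SD, n = 3). In this group 4 of 7 members were therefore lower without overlap, a separation seen in the lower direction in 8.86% and in the higher direction in 9.16% of all tested genes.

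Among the transcription regulators, ATF4 itself (chromosome 22, 39519695 to 39522685, plus strand) read 502, 505.3 and 521.2 CPM with PQ and 509.5, 470.8 and 440.5 CPM with PQ+SS-31. PQ+SS-31 replicate 1 lay within the PQ range. The log2 fold change of the ATF4 mRNA was -0.11 ± 0.09 (SE), with a 95% interval from -0.31 to 0.10 and an edgeR adjusted p of 0.749. The pseudogene ATF4P3 took at most 28 counts in a library.

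CEBPG, a C/EBP protein that pairs with ATF4 on amino acid genes, stood at 157.9, 153.3 and 154.9 CPM with PQ and 127.9, 126.6 and 125.7 CPM with PQ+SS-31. The gap between the groups was wider than the range within either. CEBPG missed the threshold in edgeR (log2 fold change -0.29 ± 0.08, SE; adjusted p = 0.162), and DESeq2 called it (adjusted p = 0.0451). CEBPB, an inflammatory and stress-induced member of the same family, was at 451.1, 405.2 and 530.7 CPM with PQ and 431.9, 320.4 and 324.4 CPM with PQ+SS-31. Its groups overlapped through PQ+SS-31 replicate 1, and the log2 fold change of -0.37 ± 0.15 (SE) did not pass (edgeR adjusted p = 0.382).

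ATF5, an ATF4 relative linked to the mitochondrial stress response, was at 66.2, 56.8 and 64.0 CPM with PQ and 55.8, 52.3 and 56.9 CPM with PQ+SS-31. The groups met at the second PQ library, and the log2 fold change was -0.18 ± 0.09 (SE). Other genes overlap 23.7% of its exon bases. NUPR1, a stress-induced chromatin protein, was at 28.8 ± 4.65 and 26.2 ± 9.24 CPM (SD, n = 3), with its highest value, 36.9 CPM, in PQ+SS-31 replicate 1. JDP2, a repressor that dimerises with AP-1 and ATF proteins, was at 22.3 ± 2.49 and 22.7 ± 1.70 CPM (SD, n = 3). Of the 6 regulators 5 had negative log2 fold changes, with a median of -0.16 and 0 calls by edgeR. At an unadjusted edgeR p of 0.05, 2 were lower (CEBPG and CEBPB), against 5.94% of all tested genes.

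Of the 11 amino acid synthesis genes, 0 were called in either direction. The log2 fold change was above 0 in 8 of them, and the median was 0.10. Before adjustment edgeR put PSPH and PYCR1, 2 genes, under a p of 0.05 in the higher direction and 0 in the lower, against 5.62% higher and 5.94% lower over all tested genes. By the same count the 35 members had 2 higher and 7 lower. The groups did not overlap, in the higher direction, in PSAT1, PSPH, SHMT2 and PYCR1, a separation seen in 9.16% of all tested genes. On the TPM scale PSAT1 stayed separate, and PSPH, SHMT2 and PYCR1 overlapped. PHGDH became separate there, at 43.89 to 46.72 TPM with PQ and 47.09 to 51.97 TPM with PQ+SS-31.

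The serine pathway was measured whole. PHGDH, which takes a glycolytic intermediate into serine synthesis, read 130.5, 141.2 and 119.7 CPM with PQ and 140.4, 151.3 and 144.9 CPM with PQ+SS-31, overlapping through PQ replicate 2. PSAT1, the next enzyme, read 363.9, 372.3 and 350.6 CPM with PQ and 406.8, 401.6 and 406.4 CPM with PQ+SS-31. PSAT1 was higher in every PQ+SS-31 library, by 11.8%, with a log2 fold change of 0.16 ± 0.08 (SE) and an edgeR adjusted p of 0.513. PSPH, the last enzyme, read 46.8, 41.3 and 47.6 CPM with PQ and 58.7, 47.9 and 54.0 CPM with PQ+SS-31. The lowest PSPH value with SS-31 was just above the highest without it, and the log2 fold change was 0.24 ± 0.11 (SE), with an edgeR adjusted p of 0.422.

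In mitochondrial folate metabolism, SHMT2, which turns serine into glycine, was at 116.6 ± 5.71 and 124.7 ± 4.10 CPM (SD, n = 3). MTHFD2, which oxidises the resulting one-carbon unit, was at 354.3 ± 22.4 and 343.8 ± 9.94 CPM, and ALDH1L2, which ends the same route, at 55.3 ± 9.89 and 58.6 ± 2.48 CPM. Their log2 fold changes were 0.10, -0.04 and 0.08, and none passed the test. Other genes overlap 33.2% of the MTHFD2 exon bases.

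PYCR1, the mitochondrial enzyme that completes proline synthesis, read 74.7, 69.5 and 61.4 CPM with PQ and 77.8, 82.8 and 79.5 CPM with PQ+SS-31. Its lowest level was in PQ replicate 3, and without that library the other PQ values still lay below all PQ+SS-31 values. PYCR1 missed the threshold (log2 fold change 0.22 ± 0.09, SE; edgeR adjusted p = 0.413). Other genes overlap 29.7% of its exon bases. GPT2, the mitochondrial alanine transaminase, was at 40.4 ± 2.20 and 43.3 ± 2.54 CPM (SD, n = 3).

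ASNS, the asparagine synthetase often used as a readout of ATF4, was among the least abundant members per length. ASNS read 3.26, 2.78 and 4.65 CPM with PQ and 4.74, 4.16 and 5.07 CPM with PQ+SS-31. PQ replicate 3 lay among the PQ+SS-31 libraries, and the log2 fold change was 0.38 ± 0.23 (SE) with an edgeR adjusted p of 0.60. The model AC079781.5 shares 44.6% of the ASNS exon bases in GENCODE 29, so reads there may have been left out of both counts, and the level of ASNS is uncertain.

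The transsulfuration enzymes, which make cysteine from homocysteine, are CBS and CTH. CBS read 27.4, 30.0 and 23.1 CPM with PQ and 17.4, 20.7 and 26.1 CPM with PQ+SS-31. The groups overlapped, and the log2 fold change was -0.33 ± 0.16 (SE), the lowest among the supply genes. CBS is uncertain because its near-identical copy CBSL took 2 to 115 counts in a library. CTH, the second enzyme, was at 2.99 ± 0.071 and 2.82 ± 0.73 CPM (SD, n = 3).

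For all 7 amino acid transporters the groups overlapped in CPM, and none was called. On the TPM scale SLC1A4 was lower without overlap, at 23.87 to 27.75 TPM with PQ and 20.17 to 23.27 TPM with PQ+SS-31. The partners of the large neutral amino acid exchanger, SLC7A5 and SLC3A2, were at 1849 ± 152 and 2005 ± 192 CPM and at 559.8 ± 66.2 and 538.2 ± 53.3 CPM (SD, n = 3). SLC1A5, which imports glutamine, was at 519.3 ± 46.0 and 547.8 ± 45.1 CPM, with 23.8% of its exon bases overlapped by other genes, and SLC38A2, a sodium-coupled importer of small neutral amino acids, at 801.6 ± 72.9 and 777.1 ± 47.6 CPM. SLC7A1, the arginine and lysine carrier, was at 181.4 ± 32.3 and 172.8 ± 19.3 CPM. SLC1A4, a carrier of alanine, serine and cysteine, was at 54.6 ± 5.19 and 48.8 ± 6.86 CPM, and SLC6A9, a glycine transporter, at 33.7 ± 3.29 and 32.7 ± 2.10 CPM.

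The 7 transporter log2 fold changes ran from -0.16 to 0.12 with a median of -0.04. At an unadjusted edgeR p of 0.05, 0 of the 7 were higher or lower, against 5.62% higher and 5.94% lower over all tested genes. A count of 0 among so few genes is near those shares. For 16 of the 18 supply genes the 95% interval lay wholly above -0.51, the fitted change of SESN2, a bound chosen after the values were seen. The exceptions were CBS and CTH. The same held for 10708 of the 15550 tested genes. The bound takes the SESN2 value as exact, although its own 95% interval ran from -0.70 to -0.32. The median of the supply genes was between 0.03 and 0.12 in refits without 1 library, with the lowest value when PQ replicate 3 was left out. In the same refits the median of the pro-death and feedback genes, each time the value of SESN2, was between -0.55 and -0.48.

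Of the secreted members, GDF15, a stress-induced cytokine that suppresses appetite, read 674, 586.6 and 828.4 CPM with PQ and 602, 420.9 and 441.2 CPM with PQ+SS-31. PQ+SS-31 replicate 1 exceeded PQ replicate 2, so the groups overlapped. The log2 fold change was -0.51 ± 0.17 (SE), close in size to that of SESN2 with a wider spread, and did not pass (edgeR adjusted p = 0.266). Without a filter on low counts edgeR called it (adjusted p = 0.00295), at almost the same log2 fold change of -0.52. FGF21, a hormone that liver secretes under amino acid shortage, had 0 counts in the 3 PQ libraries and 1, 0 and 2 counts in PQ+SS-31 replicates 1, 2 and 3, which is too few for a comparison. A count of 0 allows up to 3 counts, for counting error alone.

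XPOT, which exports tRNA from the nucleus, read 399.3, 433.7 and 347 CPM with PQ and 328.4, 364.9 and 344.2 CPM with PQ+SS-31. In CPM, PQ replicate 3 lay among the PQ+SS-31 libraries, while on the TPM scale the groups did not overlap. The log2 fold change was -0.19 ± 0.11 (SE). VLDLR, a lipoprotein receptor, was at 39.3 ± 3.09 and 42.4 ± 3.001 CPM (SD, n = 3). STBD1, which tethers glycogen to membranes, was at 2.32 ± 0.47 and 2.09 ± 0.30 CPM, and 58.1% of its exon bases are shared with a readthrough model.

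The order of libraries within groups, looked at after the values were seen, differed between members. DDIT3, CHAC1, PPP1R15A, DDIT4, ATF4, CEBPB, NUPR1 and GDF15, together with PSPH and SLC3A2, were highest in replicate 3 among the PQ libraries and in replicate 1 among the PQ+SS-31 libraries. SLC7A5, SLC7A1, SLC1A4, SLC1A5 and SLC38A2 were lowest in the same libraries, as were PHGDH, PYCR1, GPT2, CBS, SESN2 and XPOT. These are 10 and 11 of the 35 tested members (28.6% and 31.4%). Over all tested genes, 22.2% were highest and 22.7% lowest in that pair of libraries, not far from the shares of the members as a whole. By role the shares differed. Of the 7 transport genes 71.4% were lowest and 14.3% highest in that pair, and of the 11 synthesis genes 36.4% and 9.09%. Of the 7 pro-death and feedback genes 57.1% were highest and 14.3% lowest, and of the 6 regulators 50% and 0%. The reason for this was not tested. TRIB3, in contrast, was lowest of the PQ libraries in replicate 3, and its 2 groups showed no such order. PQ replicate 3 and PQ+SS-31 replicate 1 also had the lowest mitochondrial share of their groups, 9.08% and 8.39%, and the part of this in the order was not tested.

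**Figure D3:**
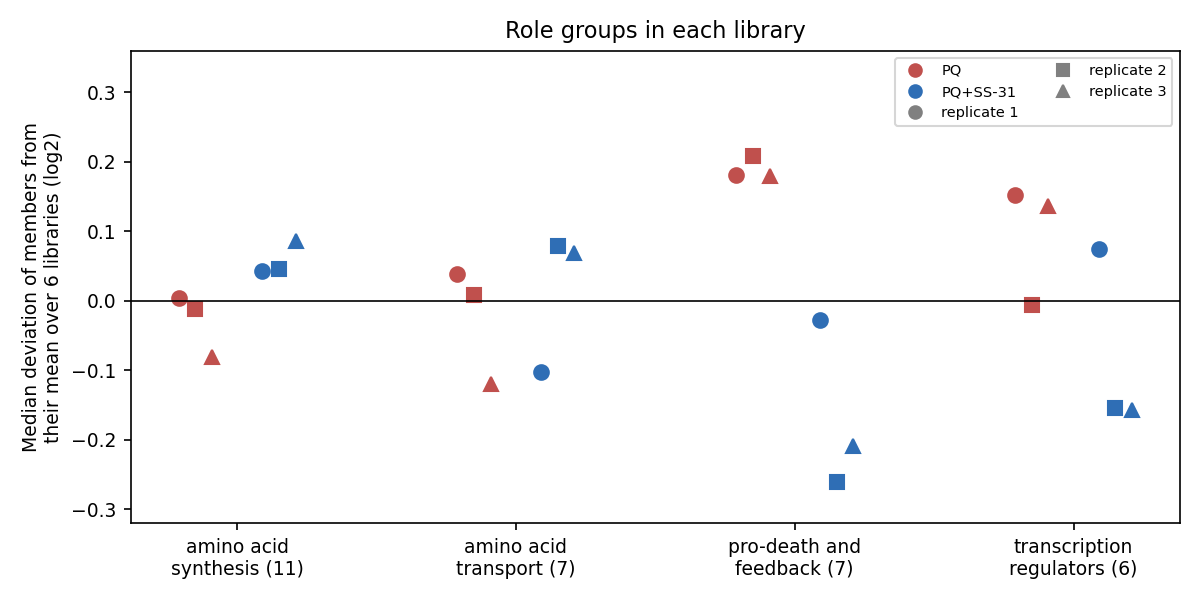
Median deviation of the members of each role group from their own mean over the 6 libraries (y axis, log2), 1 point per library, PQ in red and PQ+SS-31 in blue. For the pro-death and feedback genes the PQ libraries lie between 0.18 and 0.21 and the PQ+SS-31 libraries between -0.26 and -0.03, while transport genes overlap between groups.

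The median deviation of the pro-death and feedback genes was 0.18, 0.21 and 0.18 on the log2 scale in PQ replicates 1, 2 and 3 and -0.03, -0.26 and -0.21 in PQ+SS-31 replicates 1, 2 and 3. PQ+SS-31 replicate 1 was the nearest to the PQ group. For synthesis genes the medians were 0.00, -0.01 and -0.08 with PQ and 0.04, 0.05 and 0.09 with PQ+SS-31, a narrow gap. For transport genes they were 0.04, 0.01 and -0.12 with PQ and -0.10, 0.08 and 0.07 with PQ+SS-31, where the groups overlapped. For the regulators they were 0.15, -0.01 and 0.14 with PQ and 0.08, -0.15 and -0.16 with PQ+SS-31, overlapping through PQ replicate 2.

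Levels per length differed widely between members. On the TPM scale, averaged over the 6 libraries, SLC7A5 was the highest at 1285 TPM, followed by GDF15 at 911, CEBPB at 672.6, ATF4 at 622.7, PSAT1 at 556.4 and SLC1A5 at 507 TPM. With PQ, GDF15 was at 1083 ± 243.5 TPM and SLC7A5 at 1255 ± 75.8 TPM (SD, n = 3), so these neighbours did not differ beyond their spread, nor did CEBPB at 765.9 ± 143.1 and ATF4 at 654.1 ± 43.9 TPM. With PQ+SS-31, SLC7A5 at 1315 ± 30.8 TPM lay above GDF15 at 739.4 ± 212.5 TPM in every library. CEBPB at 579.4 ± 150.7 and ATF4 at 591.4 ± 88.2 TPM again did not differ beyond their spread. TRIB3 and PPP1R15A were close to each other with PQ, at 274.4 ± 8.60 and 290.4 ± 55.7 TPM, and again with PQ+SS-31, at 178.6 ± 15.3 and 154 ± 37.9 TPM. DDIT3 and CHAC1 were lower, at 51.2 ± 13.6 and 36.3 ± 6.997 TPM with PQ. At the low end were CTH at 3.85 TPM, ASNS at 2.94 TPM and STBD1 at 2.04 TPM. 

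**Figure D4:**
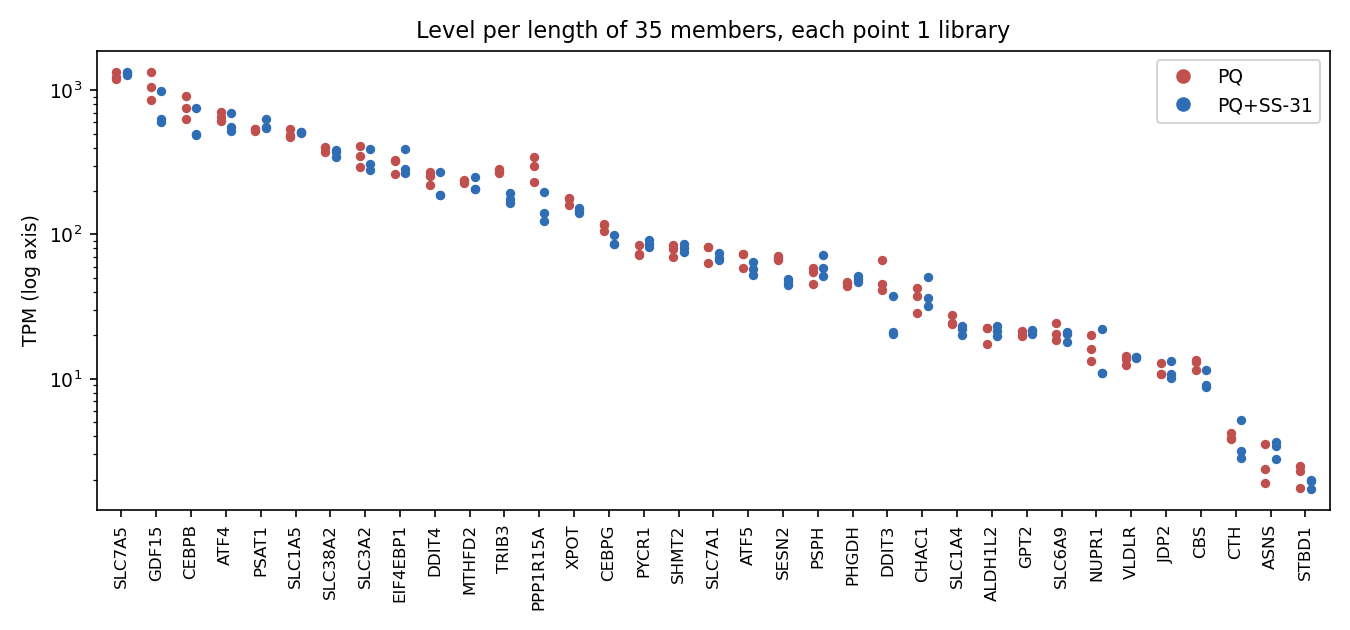
Level per length (TPM, log axis) of 35 members in each library, ordered by their mean, PQ in red and PQ+SS-31 in blue; FGF21, with 0 to 2 counts, is left out. The order runs from SLC7A5 at 1285 TPM to STBD1 at 2.04 TPM, and the separation of colors is visible for TRIB3, PPP1R15A, SESN2 and DDIT3. By smaller gaps the groups were also separate for CEBPG, XPOT, SLC1A4, PSAT1 and PHGDH.

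Genes of the same pathway outside the 36 were taken as 3 lists. The eIF2 machinery list held the 4 eIF2 kinases, the eIF2 and eIF2B subunits, PPP1R15B, GCN1, DELE1, OMA1 and IMPACT. Of its 17 genes, 0 were called and 0 had an unadjusted edgeR p under 0.05, with a median log2 fold change of -0.01. At that p, 5.62% of all tested genes were higher and 5.94% lower. PPP1R15B and OMA1, the mitochondrial protease that relays stress to the eIF2 kinase HRI, had the smallest p, and OMA1 was at 9.01 ± 1.21 and 10.9 ± 1.23 CPM (SD, n = 3). Of 18 tested genes of other amino acid and one-carbon synthesis, 0 were called by edgeR. Before adjustment 3 of these had an edgeR p under 0.05, all with positive changes, against 5.62% higher over all tested genes. The median log2 fold change was 0.05. SHMT1, the cytosolic counterpart of SHMT2, was at 29.3 ± 2.67 and 41.1 ± 4.27 CPM, with a log2 fold change of 0.49 ± 0.11 (SE) and an edgeR adjusted p of 0.118. DESeq2 called SHMT1 (adjusted p = 0.0261), and so did edgeR without PQ replicate 3 (adjusted p = 0.0292). PYCR3, another proline synthesis enzyme, was at 14.1 ± 2.21 and 18.8 ± 1.76 CPM (SD, n = 3), which missed the threshold (edgeR adjusted p = 0.303).

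Of 19 other amino acid transporters, 13 were tested and 0 called, with a median of 0.06. At an unadjusted edgeR p of 0.05 there were 0, against 5.62% higher and 5.94% lower over all tested genes. SLC36A1, a lysosomal and plasma membrane carrier of small amino acids, was at 28.1 ± 3.90 and 23.6 ± 2.18 CPM, and SLC7A6, an exchanger of cationic and neutral amino acids, at 24.1 ± 3.08 and 28.0 ± 1.38 CPM (SD, n = 3). DESeq2 called 1 gene over the 3 lists, SHMT1, and limma-voom 0.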

How the data were processed

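The deposited table gives unnormalized gene counts of all 6 libraries and gene lengths in bases. The submitters' processing notes name featureCounts 1.5.0-p3, HISAT2 2.0.5, CASAVA and DESeq2 1.20.0, and a mouse build (mm10), but all 58735 gene IDs match human GENCODE 29 positions on GRCh38. No source used here gives strand use or the treatment of shared reads, so overlapping genes cannot be told apart. Columns were matched to samples by group letter and replicate number.

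Genes passing edgeR's filterByExpr (15550) were scaled by TMM and tested with edgeR 4.0.16 (R 4.3.3), glmQLFit and glmQLFTest, with Benjamini-Hochberg adjustment over all of them. SE is the log2 fold change over the root of F. Library deviations use log2 CPM with a prior count of 2. Named genes were those with adjusted p under 0.05, further members of smallest p up to 16, and ATF4, DDIT3, ASNS, CHAC1 and PPP1R15A; from each other list, the 2 of smallest p. Alternatives were RLE factors, library size alone, no filter, 1 CPM in 3 libraries, the replicate block, DESeq2 1.42.0, limma-voom (limma 3.58.1) and leaving out each library. Members and lists were chosen with earlier results of these data known. The test was checked on simulated data. Replicates were all counted, since none matched another within sampling noise (chi-square per degree of freedom of 7.51 to 36.3).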

Additional observations from a re-analysis of the deposited data

How the results depend on the processing

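edgeR as described called 92 genes and 3 members. No filter on low counts gave 393 genes and 5 members (adding DDIT3 and GDF15), and DESeq2 gave 323 genes and 5 members (adding DDIT3 and CEBPG). Each of these also called 1 gene of the pathway lists outside the members, SHMT1. With the replicate number as a block, 200 genes, the same 3 members and 1 gene of the pathway lists (SHMT1) were called. Same-numbered libraries did not deviate together in every pair (r of -0.09, 0.39 and 0.19 for numbers 1, 2 and 3), and PQ replicate 3 correlated best with PQ+SS-31 replicate 1 (r = 0.29), so the numbers were not taken as pairs. Leaving out 1 library gave 0 to 328 genes, 0 to 3 members, 0 to 3 pro-death and feedback members and 0 to 1 gene of the pathway lists. These refits have fewer samples, and the cause of the rise without PQ replicate 3 was not tested. The median changes of the supply and of the pro-death and feedback genes moved by less than the spread between libraries in every alternative. The pro-death and feedback median was the value of SESN2 in each. No named member changed sign in any alternative. With library size alone 2 members were called, without PPP1R15A. Of 234 refitted values of named members, 214 kept their side of the threshold, 16 lost and 4 gained a call. At this depth, ASNS, CTH, STBD1 and FGF21, all under 6 CPM, were measured least precisely.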
